A study of Mus musculus with 9 samples.

Results

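Genes of the core splicing machinery were read on Affymetrix arrays hybridised with RNA of 6 alveolar rhabdomyosarcomas from mice and 3 wild-type mouse skeletal muscles. Members were taken by name, under a rule set with earlier results of these data known. The rule takes every gene on the array whose single platform symbol starts with Srsf, Hnrnp, Snrp, Sf3a or Sf3b. These were 44 of 12393 genes, made up of 9 Srsf, 18 Hnrnp, 8 Snrp, 3 Sf3a and 6 Sf3b genes. They had 115 probe sets between them, and each gene was read by its brightest one, that with the highest mean log2 signal over the 9 arrays. A further 5 family symbols, among them Hnrnpa3, Snrpa, Snrpd1 and Snrpd2, occurred only on probe sets that the annotation assigns to several genes, and they were not read. The tumour samples were labelled only as alveolar rhabdomyosarcoma, a soft-tissue cancer with skeletal muscle features, and the muscle samples as wild-type controls. The labels do not state the genotype of the tumour-bearing mice, nor strain, sex, age or which muscle was taken, nor that each sample came from a separate animal. All p-values therefore measure the spread between these samples, and the number of arrays limits their precision.

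Pre-mRNA splicing removes introns in the spliceosome, which is built from small nuclear ribonucleoproteins (snRNPs). The Snrp genes encode the Sm ring proteins shared by most snRNPs and proteins that belong to single snRNPs, and the Sf3a and Sf3b genes encode the parts of the U2 snRNP that hold the branch point. SR proteins (Srsf genes) usually bind exons and recruit the spliceosome, while heterogeneous nuclear ribonucleoproteins (Hnrnp genes) coat the nascent transcript and often repress nearby splice sites. Skeletal muscle is known for a large programme of alternative splicing, set by regulators such as the muscleblind and Rbfox proteins.

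The values are MAS5 signals, a linear brightness in arbitrary units, after each array was brought to a common trimmed mean. Fitted differences are tumour minus muscle on the scale of log2(signal + 16), and a gene was called where its adjusted p was under 0.05 (limma, with Benjamini-Hochberg adjustment over all 12393 genes). The tissue labels were borne out for muscle. The summed signal of 6 fibre markers ran from 971 to 63154 in tumours and from 120972 to 168298 in muscles, and all 6 were called lower. Tumour 1 had the highest sum among the tumours. Of 5 myogenic markers Ncam1 was called higher and Des lower, and Myod1, Myog and Myf5 were not called, with sums of 2978 to 7458 in tumours and 2575 to 5800 in muscles. Other cell contents moved with the groups. The 5 measured markers of dividing cells were all called higher, with sums of 8956 to 35875 in tumours and 307 to 1407 in muscles. Of 6 macrophage markers 5 were called higher, with sums of 7605 to 30863 in tumours and 2580 to 3933 in muscles. All 3 measured adipocyte markers were called lower, with sums of 155 to 1261 in tumours and 7691 to 9872 in muscles, and Adipoq lay between 9.8 and 44.3 in tumours. The summed signals of 6 fibroblast markers overlapped, at 10027 to 59117 in tumours and 30598 to 37021 in muscles, and Lum was called lower. The sums of the 5 measured T cell markers were 212 to 876 in tumours and 291 to 444 in muscles, and none was called. Of 5 endothelial markers Tek was called lower, with sums of 617 to 1737 in tumours and 2224 to 2545 in muscles, and of 2 nerve markers Mbp was, with sums of 122 to 553 in tumours and 554 to 1654 in muscles. The Gapdh control probe sets, whose 3'/5' signal ratio rises as RNA degrades, gave ratios of 1.93 to 9.39 on the tumour arrays, against 1.68, 57.17 and 33.0 on muscles 1 to 3. The same ratio of Actb was 3.35 to 6.78 on the tumour arrays, against 1.87, 4.06 and 4.35 on the muscles, so the 2 controls did not order the arrays alike. The part of cell content and RNA quality in the differences that follow was not tested. In bulk tissue, more cells that express a gene and more of its RNA per cell cannot be told apart.

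More of the splicing genes were higher in tumours than is usual on this array, and none was called lower. Of the 44 members, 9 were called higher (20.5%), where 8.66% of all genes were called higher. None was called lower by limma, where 9.09% of all genes were. The members were mostly bright, with 41 of the 44 at or above the median gene in mean log2 signal. With the dimmer genes left out, 13 of 41 members were called higher (31.7%), against 15.2% of the 6197 genes then tested. None was called lower there, against 15.7%. A member was called lower in none of the 23 alternative settings, where 2.98% to 15.7% of the genes tested were called lower. The 9 were Srsf9 and Srsf1 of the SR proteins, Hnrnpc, Hnrnpa1, Hnrnpll and Hnrnpu of the hnRNPs, Snrpg and Snrpb2 of the snRNP proteins, and Sf3b6. The median difference of the members was 0.88 (log2), against 0.10 for all genes. Of the 44 differences 37 were positive, where 6885 of all 12393 were. In 12 members (Hnrnpl, Hnrnpf, Hnrnpd, Hnrnpab and Sf3b3 beside 7 of the 9 called) every tumour signal lay above every muscle signal, as for 10.7% of all genes. No member had all its tumour signals below the muscles, where 11% of all genes did. Of the 35 members not called, Hnrnpf (adjusted p = 0.051), Snrpa1 (0.058), Hnrnpl (0.064) and Sf3b4 (0.064) came closest to the threshold.

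**Figure D1:**
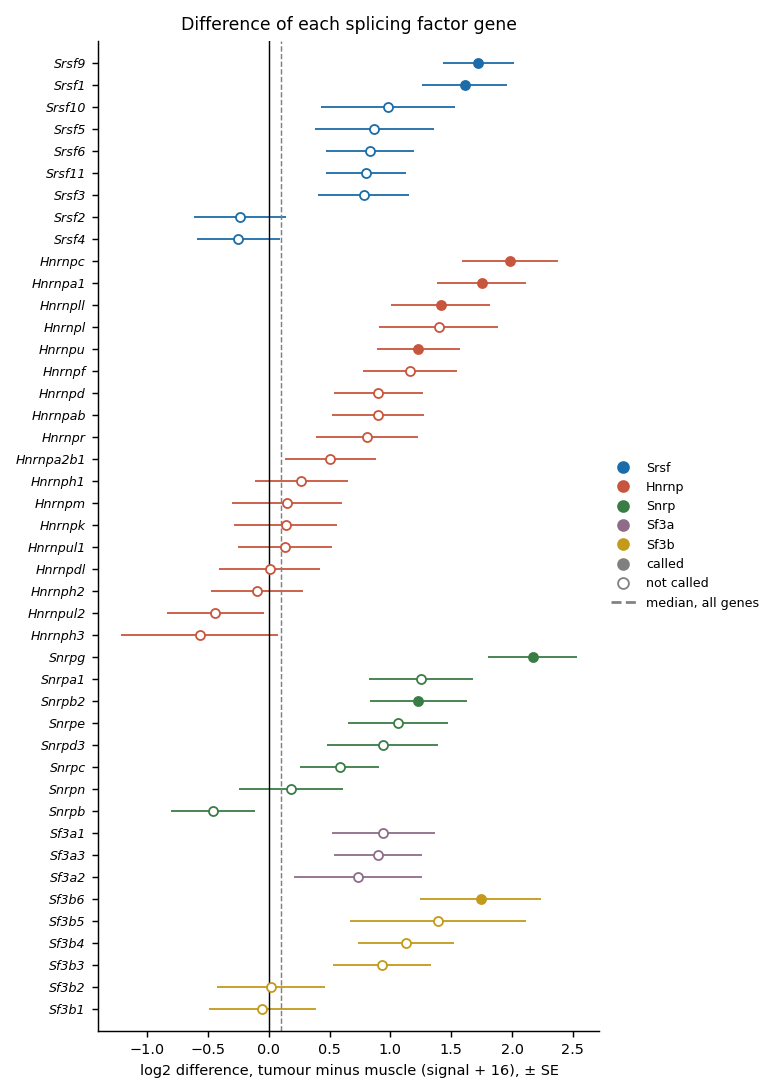
Fitted log2 difference, tumour minus muscle, of the 44 splicing genes with its standard error (horizontal axis), grouped by family and ordered by size within each; filled points were called at an adjusted p under 0.05 and the dashed line is the median of all 12393 genes. The 9 filled points lie between 1.23 and 2.17, and the 7 negative differences reach -0.57.

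The number called depended on 1 tumour and on how the muscle arrays were scaled. Without tumour 1 it was 18 of 44 (40.9%, against 11.5% of all genes), with all 9 genes kept and 9 added: Srsf10, Srsf6, Srsf11, Srsf3, Hnrnpf, Hnrnpab, Snrpa1, Snrpe and Sf3a3. Without muscle 2 it was 5 and without muscle 3 it was 4, where 4.8% and 4.06% of all genes were called higher. Using the mean of all probe sets of a gene left 4 (9.09%, against 8.25% of all genes), which were Srsf9, Hnrnpc, Hnrnpf and Snrpg. With the arrays as deposited, on which muscles 1 and 3 have a lower overall brightness, 28 were called (63.6%, against 19.1%), and the median over all genes was then 0.79.

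Srsf9, Hnrnpc and Snrpg were the only members called higher under each of the 23 alternative settings. A promoter window of each is shown for that reason. Srsf9 has only 1 probe set, so the settings that change or average probe sets left its signals as they were. Any other window of Srsf9, Hnrnpc and Snrpg was left out here but enters the counts below. The windows run from 250 bases before to 50 bases after the annotated transcription start and come from RefSeq on the GRCm38.p6 build, 5′ to 3′ along the gene's strand. They lie at chr5:115326927-115327226 on the + strand for Srsf9, at chr14:52103972-52104271 on the - strand for Hnrnpc and at chr6:86371290-86371589 on the + strand for Snrpg. Capitals mark matches to 4 motifs searched on both strands: CACGTG (the E-box bound by Myc and related factors), CCAAT (bound by NF-Y), CCGGAAG (a core of ETS family sites) and a palindrome of 10 bases centred on CGCG.
Srsf9: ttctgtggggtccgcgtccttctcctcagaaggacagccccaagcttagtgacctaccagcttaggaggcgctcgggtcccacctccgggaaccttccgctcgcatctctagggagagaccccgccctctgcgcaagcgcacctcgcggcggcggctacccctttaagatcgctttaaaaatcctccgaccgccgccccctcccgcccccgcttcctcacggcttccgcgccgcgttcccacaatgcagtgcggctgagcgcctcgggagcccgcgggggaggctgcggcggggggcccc
Hnrnpc: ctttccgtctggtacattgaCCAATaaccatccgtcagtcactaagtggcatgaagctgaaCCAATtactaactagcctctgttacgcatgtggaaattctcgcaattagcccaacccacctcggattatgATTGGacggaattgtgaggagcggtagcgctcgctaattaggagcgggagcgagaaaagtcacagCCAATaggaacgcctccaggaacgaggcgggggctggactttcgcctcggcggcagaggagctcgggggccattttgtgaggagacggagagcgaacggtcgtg
Snrpg: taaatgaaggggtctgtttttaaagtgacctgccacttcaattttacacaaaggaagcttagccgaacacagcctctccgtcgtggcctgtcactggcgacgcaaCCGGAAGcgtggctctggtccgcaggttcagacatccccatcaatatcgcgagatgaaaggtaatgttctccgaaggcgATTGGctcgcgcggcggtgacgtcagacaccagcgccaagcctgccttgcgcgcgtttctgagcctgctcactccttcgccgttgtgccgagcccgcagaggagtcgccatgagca

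The Hnrnpc window held 4 matches, all to CCAAT, the Snrpg window 1 to CCAAT and 1 to CCGGAAG, and the Srsf9 window none. The 3 windows hold 22, 26 and 32 CpG dinucleotides for Hnrnpc, Snrpg and Srsf9. Windows were found for 39 of the 44 members, 55 in all. CCGGAAG was present in 36.4% of them, against 14% of the 12566 windows of genes on the array and 8.86% of all 32851 windows of the genome. CCAAT was present in 45.5% of member windows, against 37.1% of array gene windows and 37.4% of all windows. CACGTG was present in 7.27%, against 9.11% and 7.15%, and the palindrome in 1.82%, against 0.852% of array gene windows. Member windows were rich in CpG, with a median of 25, against 17 for array gene windows and 7 for all windows, and CCGGAAG itself holds a CpG. Of the 8 called members with a window, 3 held CCGGAAG and 4 held CCAAT. These are counts of letters, and members with several windows enter more than once.

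A minority of SR protein genes were called higher, though 7 of the 9 differences were positive. Of 9 Srsf genes 2 were called higher (22.2%, against 8.66% of all genes), with a median difference of 0.83 (log2). Srsf9, a small SR protein, had signals of 1435 to 2416 in tumours (median 1694), against 549.2, 548.9 and 502.8 in muscles. The groups were far apart relative to their spread, and the tumours averaged 1824 ± 362 (SD, n = 6), against 534 ± 26.7 (SD, n = 3) for the muscles. The rise was 3.30-fold, with a difference of 1.72 ± 0.29 (log2 ± SE, adjusted p = 0.0012). Srsf1, a founding SR protein with transforming activity when overexpressed, had signals of 3316 to 7331 in tumours (median 5053), against 1380, 2321 and 1419 in muscles. No tumour lay below a muscle, and the rise was 3.05-fold, with a difference of 1.61 ± 0.35 (adjusted p = 0.0058). Its 6 probe sets differed by -0.05 to 1.61 and 2 were called, both higher. The call of Srsf1 was lost with the mean of its probe sets (adjusted p = 0.11) and without muscle 3 (0.05).

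Most other SR genes lay higher in tumours without passing the test. Srsf3, the smallest SR protein, had signals of 941 to 3488 in tumours (median 2116), against 1090, 1193 and 1198 in muscles, a difference of 0.78 ± 0.37 (adjusted p = 0.19). Tumour 1 alone lay below the muscles. Srsf10, an SR-like protein that represses splicing when dephosphorylated, had signals of 256 to 1864 in tumours (median 1228), against 396, 972 and 370 in muscles, a difference of 0.98 ± 0.55 (adjusted p = 0.27). Tumour 1 was again lowest, and without it both were called, at adjusted p of 0.021 for Srsf3 and 0.016 for Srsf10. Srsf5, Srsf6 and Srsf11 differed by 0.87 ± 0.49, 0.83 ± 0.36 and 0.80 ± 0.33. Srsf2 and Srsf4 lay slightly the other way, at -0.24 ± 0.38 and -0.25 ± 0.34, within their errors. For Srsf2 the other 3 probe sets differed by 0.45 to 1.42 and were not called, so its direction depends on the probe set.

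**Figure D2:**
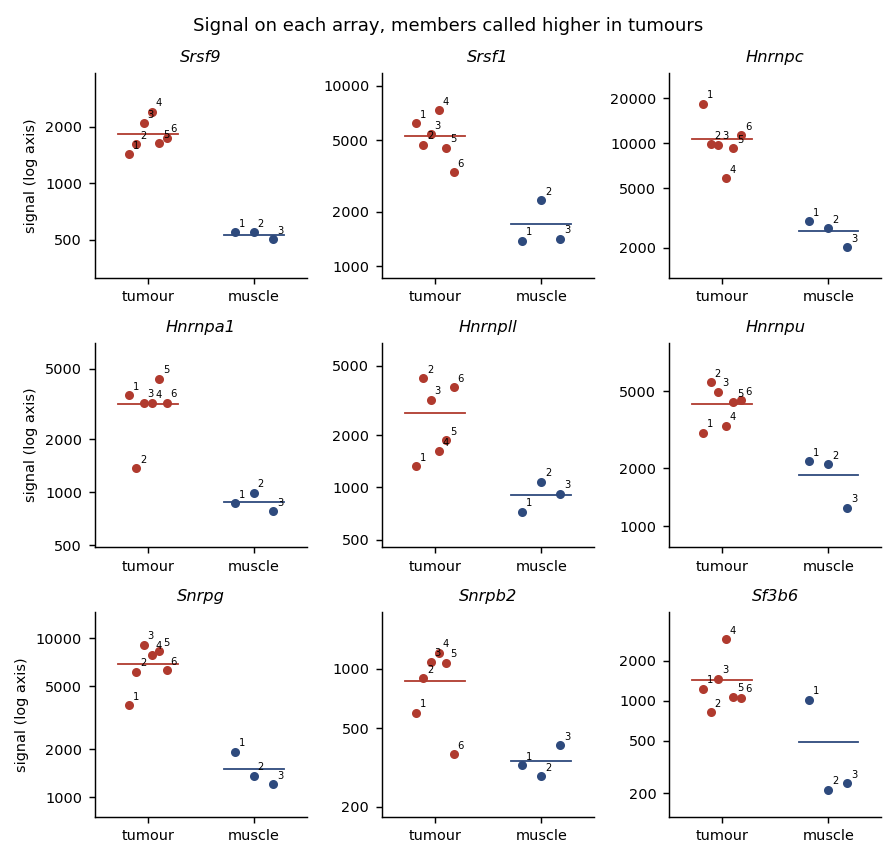
Signal of the 9 called members on each array (vertical log axis, arbitrary units after scaling), tumours left and muscles right; points are arrays with their replicate number, and lines are group means. Tumour and muscle points do not overlap for 7 of the 9 genes, and they do for Snrpb2 and Sf3b6.

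The hnRNP genes ranged from large rises to differences within their error. Of 18, 4 were called higher (22.2%, against 8.66% of all genes), and the family median of 0.66 was the lowest of the 5. Hnrnpc, which binds uridine tracts in nascent RNA, had signals of 5862 to 18411 in tumours (median 9854), against 3024, 2719 and 2026 in muscles. Every tumour was brighter than every muscle, and the rise was 3.96-fold, with a difference of 1.99 ± 0.40 (adjusted p = 0.0034). Its second, dimmer probe set differed by -0.08 and was not called. Hnrnpa1, a repressor of many exons, had signals of 1368 to 4387 in tumours (median 3216), against 866, 990 and 780 in muscles. The lowest of these was tumour 2, still above the muscles, and the rise was 3.36-fold, with a difference of 1.75 ± 0.37 (adjusted p = 0.0046). Its call was lost with the mean of its probe sets (adjusted p = 0.064). Of its 3 probe sets 1 was dim, at a mean signal of 85.6 in tumours and 105 in muscles, and differed by -0.31.

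Hnrnpll and Hnrnpu rose by less, and their calls depended on single arrays and probe sets. Hnrnpll, known in lymphocytes as a regulator of CD45 splicing, had signals of 1327 to 4233 in tumours (median 2523), against 726, 1080 and 923 in muscles, with a difference of 1.42 ± 0.41 (adjusted p = 0.027). Only the probe set with the ending _s_at, used for sets that may bind several related transcripts, showed it, and the other differed by -0.13. The call of Hnrnpll was also lost without tumour 3 (adjusted p = 0.052), tumour 6 (0.051), muscle 1 (0.12), muscle 2 (0.068) or muscle 3 (0.1). Hnrnpu, a nuclear scaffold protein, had signals of 3042 to 5575 in tumours (median 4434), against 2176, 2095 and 1243 in muscles, with a difference of 1.23 ± 0.34 (adjusted p = 0.022). Of its 5 probe sets 2 were called, both higher, and the others differed by -0.85, -0.39 and close to 0. The Hnrnpu call was lost without muscle 2 (adjusted p = 0.062) or muscle 3 (0.17), and with the mean of its probe sets (0.55).

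Among hnRNPs that were not called, Hnrnpd, which binds AU-rich elements of unstable mRNAs, had signals of 544 to 1504 in tumours (median 915), against 428, 533 and 515 in muscles. The groups did not overlap, with the lowest tumour just above the highest muscle, and the difference was 0.90 ± 0.37 (adjusted p = 0.11). Hnrnpa2b1 had signals of 2171 to 5975 in tumours (median 5348), against 3212, 3376 and 3117 in muscles, and differed by 0.51 ± 0.37 (adjusted p = 0.43). Tumour 1 alone lay below the muscles. Hnrnpk, which binds cytidine-rich RNA, had signals of 3594 to 13638 in tumours (median 7562), against 5827, 8326 and 6232 in muscles, and differed by 0.14 ± 0.42 (adjusted p = 0.88). Its probe sets disagreed: 1 of the 4 was called higher at 1.83 ± 0.39 (adjusted p = 0.0052 over all probe sets), and the other 3 differed by -0.27 to 0.36. Hnrnpl, Hnrnpf, Hnrnpab and Hnrnpr differed by 1.40 ± 0.49, 1.16 ± 0.39, 0.90 ± 0.38 and 0.81 ± 0.42. Hnrnph1, Hnrnpm, Hnrnpul1, Hnrnpdl and Hnrnph2 stayed within 0.27 of zero, with errors of 0.38 to 0.46. Hnrnpul2 and Hnrnph3 differed by -0.44 ± 0.40 and -0.57 ± 0.64.

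The snRNP protein genes held the member with the largest difference. Of 8 Snrp genes 2 were called higher (25%, against 8.66% of all genes), with a median of 1.00. Snrpg, the SmG protein of the Sm ring, had signals of 3807 to 9113 in tumours (median 7102), against 1936, 1367 and 1205 in muscles. Each tumour exceeded each muscle, and the rise was 4.50-fold, with a difference of 2.17 ± 0.36 (adjusted p = 0.001). Both of its probe sets were called, at 2.17 and 2.96. Snrpb2, the B″ protein of the U2 snRNP, had signals of 368 to 1207 in tumours (median 984), against 324, 285 and 411 in muscles, with a difference of 1.23 ± 0.40 (adjusted p = 0.047). Tumour 6 lay within the muscle range. The Snrpb2 call was marginal and was lost in 14 of the 23 alternatives, among them without tumour 2, 3, 4 or 5 (adjusted p = 0.059, 0.09, 0.086 and 0.095) and without muscle 1, 2 or 3 (0.13, 0.18 and 0.11).

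The Sm ring genes that were read differed in size and sign of their difference, but only Snrpg was called and no test between them was made. The ring was read in part, without Snrpd1, Snrpd2 and Snrpf. Snrpe and Snrpd3, which encode SmE and SmD3, differed by 1.06 ± 0.41 (adjusted p = 0.096) and 0.94 ± 0.45 (0.19). Of the 3 probe sets of Snrpd3, the brightest was positive, while another was the only probe set of the 115 called lower, at -1.28 ± 0.33 (adjusted p = 0.015). Snrpb, which encodes the SmB proteins, had signals of 995 to 1927 in tumours (median 1483), against 2589, 1305 and 2203 in muscles. It was the one Snrp gene with a negative difference, -0.46 ± 0.35 (adjusted p = 0.44), and its sign turned (0.40) on the arrays as deposited. Snrpn, the imprinted SmN gene best known from brain, had signals of only 12.6 to 70.7 in tumours (median 31.2), against 41.9, 31.8 and 15.3 in muscles, with a difference of 0.18 ± 0.43 (adjusted p = 0.84). At such signals background and expression were not separated, and its other probe sets, shared with Snurf, were not read. Snrpa1 and Snrpc, of the U2 and U1 snRNPs, differed by 1.25 ± 0.43 (adjusted p = 0.058) and 0.58 ± 0.32 (0.27). Snrnp70, a core protein of the U1 snRNP whose symbol falls outside the rule, differed by 0.66 ± 0.33 (adjusted p = 0.22).

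Of the 9 genes of the U2-associated Sf3a and Sf3b complexes, 1 was called higher (11.1%), close to the 8.66% of all genes. Sf3b6, the subunit that contacts the branch point adenosine, had signals of 815 to 2885 in tumours (median 1146), against 1018, 213 and 239 in muscles. Muscle 1 lay among the tumours, and the difference was 1.74 ± 0.50 (adjusted p = 0.027). The Sf3b6 call was lost without muscle 2 or without muscle 3 (adjusted p = 0.16 each) and with the mean of its 4 probe sets (0.13), which all differed in the positive direction, by 0.67 to 1.74. Sf3b1, the largest subunit and the one most often mutated in human blood cancers, had signals of 1195 to 5983 in tumours (median 3387), against 2617, 3666 and 3526 in muscles. The muscles lay within the tumour range, and the difference was -0.05 ± 0.44 (adjusted p = 0.96). Sf3b5, Sf3b4, Sf3b3 and Sf3b2 differed by 1.39 ± 0.72, 1.13 ± 0.39, 0.93 ± 0.40 and 0.02 ± 0.44, and Sf3b5 was dim, at a mean of 149 in tumours and 29.9 in muscles. Sf3a1 had signals of 204 to 781 in tumours (median 570), against 323, 222 and 228 in muscles, and differed by 0.94 ± 0.43 (adjusted p = 0.16), with tumour 2 below all muscles. Sf3a3 and Sf3a2 differed by 0.90 ± 0.36 and 0.74 ± 0.53, and 1 of the 2 probe sets of Sf3a2 was negative (-0.76).

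The 5 families differed little in their medians, which were 0.83 for Srsf, 0.66 for Hnrnp, 1.00 for Snrp, 0.90 for Sf3a and 1.03 for Sf3b, against 0.10 for all genes. Except in Sf3a, the range within each family was wider than the spread of the 5 medians. The ranges ran from -0.25 to 1.72 in Srsf, -0.57 to 1.99 in Hnrnp, -0.46 to 2.17 in Snrp, 0.74 to 0.94 in Sf3a and -0.05 to 1.74 in Sf3b. Members are not replicates, so no test between families was made. All 5 medians were positive under each of the 23 alternatives.

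Family medians lay further apart in tumours 1 and 2 than in the other tumours. In tumour 1 the median difference from the muscle mean was -0.24 for Srsf, 0.49 for Hnrnp, 0.20 for Snrp, 1.56 for Sf3a and 1.17 for Sf3b, where the median of all genes was 0.44. In tumour 2 it was 1.497 for Srsf, 0.71 for Hnrnp, 0.62 for Snrp, -0.30 for Sf3a and 0.98 for Sf3b, where the median of all genes was -0.35. The Srsf median was thus the lowest of the families in tumour 1 and the highest in tumour 2, with that of the 3 Sf3a genes the reverse. From tumour 1 to tumour 2 Sf3a3 rose, at 322 and 827, and Srsf1 fell, at 6218 and 4706. The other Sf3a and Srsf genes moved with their family median. In tumours 3 to 6 every family median lay between 0.54 and 1.29. Over all 44 members the median was 0.41, 0.80, 0.85, 0.92, 0.84 and 0.90 in tumours 1 to 6, and -0.01, 0.10 and -0.15 in muscles 1 to 3. Tumour 1 held the lowest tumour signal for 25 of the 44 members and tumour 2 for 12, while tumours 3 and 5 held it for none. Tumour 4 had the highest tumour signal for 13. Among the muscles, muscle 3 held the lowest signal for 23 members, muscle 1 for 11 and muscle 2 for 10. Members spread more among the tumours than among the muscles, with median SDs of 0.59 and 0.29 (log2), as did all genes, at 0.70 and 0.36.

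**Figure D3:**
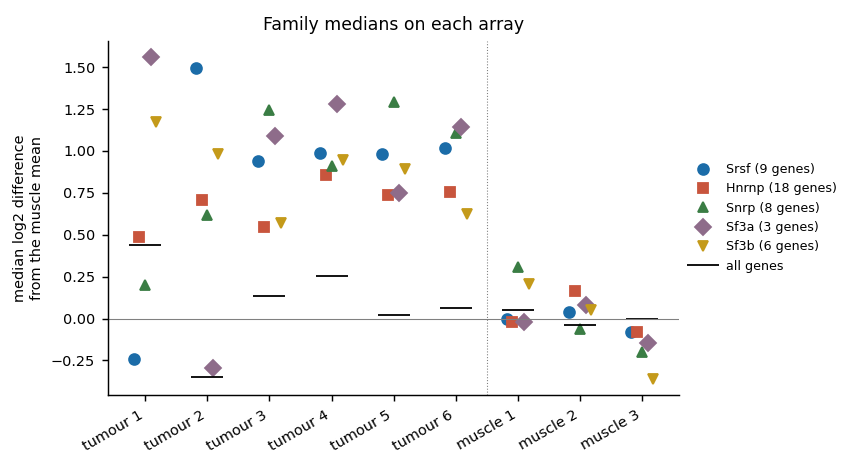
Median over the genes of each family of the log2 difference from the mean of the 3 muscles (vertical axis) on each array (horizontal axis); black bars give the same median over all 12393 genes. Srsf lies at -0.24 in tumour 1 and 1.497 in tumour 2, Sf3a at 1.56 and -0.30, and in tumours 3 to 6 all families lie above 0.5.

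Probe sets of the same gene often disagreed. Of the 30 members with several, 17 had probe sets of both signs. Among all 115 probe sets 17 were called higher and 1 lower, where 7.8% and 7.89% of the 20380 probe sets with 1 symbol were. Positive differences made up 85 of the 115. Srsf3, Hnrnpk, Hnrnpf and Hnrnpab were not called by the brightest probe set but had another called higher, at 1.32, 1.83, 1.56 and 1.24. Which exons or 3′ ends each probe set reads was not examined, so isoform changes and probe quality cannot be told apart.

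**Figure D4:**
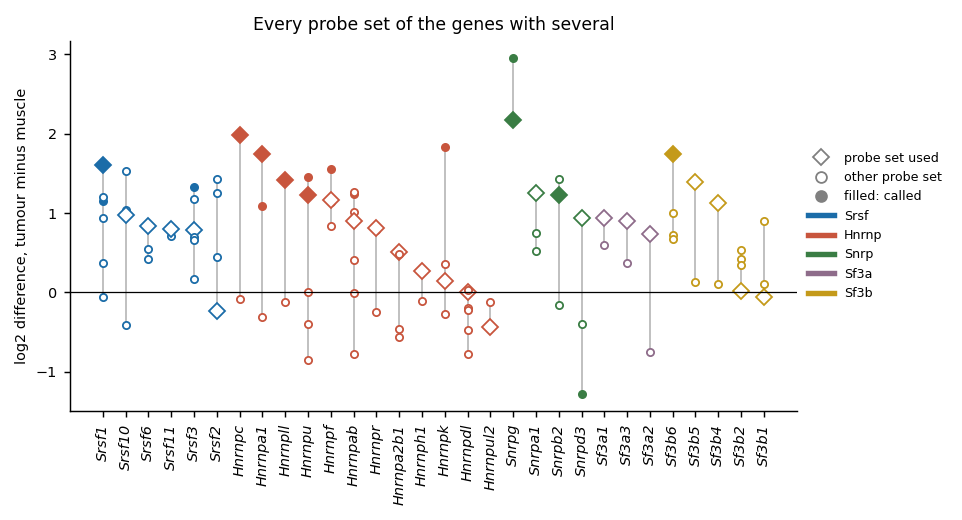
Fitted log2 difference, tumour minus muscle (vertical axis), of every probe set of the 30 members that have several; diamonds are the probe sets used, circles the others, and filled symbols were called with adjustment over all probe sets. Snrpg has both filled, at 2.17 and 2.96, and the 1 filled symbol below zero belongs to Snrpd3, at -1.28.

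Other splicing genes were read from 6 lists, of which 124 genes were measured. Of these 18 were called higher (14.5%, against 8.66% of all genes) and 4 lower (against 9.09%), with a median difference of 0.37, which is above the 0.10 of all genes and below the 0.88 of the members. The 4 lower ones were Rbfox1, Srpk3, Mbnl1 and Thoc7. Without the scaling of the muscle arrays 45 were higher and 1 lower, where 19.1% and 2.98% of all genes were. Without tumour 1, 28 were higher and 4 lower, where 11.5% and 10.9% of all genes were. Of the 124 genes, 104 were at or above the median gene in brightness. With the dimmer genes left out, 19 of those 104 were higher, where 15.2% of the 6197 genes then tested were. Rbfox1, Srpk3, Mbnl1 and Thoc7 stayed called lower there, where 15.7% of the genes tested were. Each list was mostly of bright genes, so the shares of all genes set beside the single lists below carry the same limit.

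Regulators that set muscle splicing patterns were among the few that fell. Mbnl1, a muscleblind protein that promotes adult exon choices, had signals of 913 to 4352 in tumours (median 1862), against 7883, 8037 and 9751 in muscles. All tumours lay below all muscles, and the fall was 4.46-fold (-2.16 ± 0.48, adjusted p = 0.0064). The Mbnl1 call was lost on the arrays as deposited (-1.30, adjusted p = 0.1). Rbfox1, which binds UGCAUG elements around muscle and neuronal exons, had signals of 16.3 to 1595 in tumours (median 547), against 3757, 5156 and 5308 in muscles. It was close to background in tumours 4 and 5, at 16.3 and 32.4, and differed by -3.95 ± 1.08 (adjusted p = 0.02). The Rbfox1 call was lost without muscle 1 (adjusted p = 0.057), muscle 2 (0.078) or muscle 3 (0.086). Both genes are expressed in muscle fibres, whose markers were also lower in the tumours, and the part of fibre content was not tested.

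Mbnl3, the family member of embryonic and regenerating muscle, went the other way. It had signals of 155 to 3354 in tumours (median 669), against 104, 77.1 and 121 in muscles, with a difference of 2.59 ± 0.80 (adjusted p = 0.038). The Mbnl3 call was lost without tumour 4 (adjusted p = 0.072), tumour 5 (0.077), tumour 6 (0.057) or muscle 1, 2 or 3 (0.1, 0.14 and 0.1). Rbfox2, Celf1, Ptbp1 and Ptbp2 were not called, at 0.80 ± 0.42, -0.21 ± 0.41, -0.36 ± 0.40 and 0.51 ± 0.41. For Ptbp1 the direction depends on the probe set, and the mean of its 2 gave 1.35 (adjusted p = 0.024). Of the 38 measured regulators 8 were called higher (21.1%, against 8.66% of all genes) and 2 lower (against 9.09%). Rbm39 and Khdrbs3 followed Mbnl3 among the rises, at 2.31 ± 0.75 and 2.12 ± 0.66. Both calls were marginal (adjusted p = 0.046 and 0.038). The other 5 called higher, Celf4, Nono, Ptbp3, Ewsr1 and Fubp1, differed by less, at 1.32 to 2.07, but had lower adjusted p of 0.002 to 0.013, and they were added after their values were seen. The Rbm39 call was lost without each array but tumour 1, at 0.059 to 0.15, and that of Khdrbs3 without tumour 5 (0.061), tumour 6 (0.057) or muscle 1, 2 or 3 (0.061, 0.22 and 0.081). Averaging the 9 probe sets of Rbm39 also lost its call, as did quantile normalization, median centring and a fit without the intensity trend. Quantile normalization, median centring and an offset of 64 lost that of Khdrbs3.

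Kinases that phosphorylate SR proteins and other SR-related genes showed 1 call among 16, a gene called lower, with a median of 0.30. Of all genes 17.8% were called in either direction. Srpk3, the SR protein kinase enriched in striated muscle, had signals of 142 to 306 in tumours (median 225), against 1268, 1157 and 964 in muscles, a 4.93-fold fall (-2.30 ± 0.36, adjusted p = 0.00069). The Srpk3 call rested on a probe set with the ending _s_at and was lost with the other one (-0.54, adjusted p = 0.46), and also on the arrays as deposited (-1.46, adjusted p = 0.059).

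In 3 lists of core spliceosome genes 14.3%, 7.69% and 11.1% were called higher and none lower, where 8.66% and 9.09% of all genes were. Of 28 genes of the tri-snRNP, the Prp19 complex and helicases 4 were higher, with a median of 0.46, led by Rbmx2 at 2.62 ± 0.52 (adjusted p = 0.0031), Bud31 at 2.11 ± 0.39 (0.0021) and Prpf38b at 1.86 ± 0.53 (0.025). Rbmx2 was dim in muscles, at 101, 11.9 and 19.1, against 164 to 444 in tumours. The Prpf38b call was lost without tumour 5 (adjusted p = 0.05), muscle 2 (0.095) or muscle 3 (0.18), and that of Bud31 with its _x_at and _s_at probe sets left out (0.13). Of 13 genes of branch point recognition 1 was higher, U2af2, the large subunit of the factor that binds the polypyrimidine tract, at 1.29 ± 0.38 (adjusted p = 0.032). The U2af2 call was lost without tumour 3 (0.062), tumour 6 (0.06) or muscle 1, 2 or 3 (0.12, 0.082 and 0.12). Of 18 genes of the Lsm ring and snRNP assembly 2 were higher, Lsm2 and Lsm8, which build the ring of the U6 snRNP, at 2.08 ± 0.48 (adjusted p = 0.0086) and 2.07 ± 0.65 (0.041). The Lsm2 call was lost without muscle 3 (0.083), and that of Lsm8 without tumour 3 (0.077), tumour 4 (0.063), tumour 6 (0.052) or muscle 1, 2 or 3 (0.075, 0.19 and 0.11).

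Of 11 genes of the exon junction complex and mRNA export 3 were called higher (27.3%, against 8.66% of all genes) and 1 lower (against 9.09%), with a median of 0.56. Alyref, an mRNA export adaptor, had signals of 697 to 1799 in tumours (median 1096), against 335, 251.5 and 58.5 in muscles, a 5.65-fold rise (2.50 ± 0.50, adjusted p = 0.0033) that was called under all 23 alternatives. Ddx39b, the helicase that loads export factors, differed by 1.78 ± 0.37 (adjusted p = 0.0043; 0.072 without its _x_at and _s_at probe sets) and Nxt1, a partner of the export receptor, by 1.23 ± 0.36 (0.029). Thoc7, a subunit of the THO complex, had signals of 518 to 2200 in tumours (median 1093), against 3212, 3241 and 3085 in muscles, and fell 2.94-fold (-1.56 ± 0.39, adjusted p = 0.013). The Thoc7 call was lost on the arrays as deposited (-0.70, adjusted p = 0.35) and with the mean of its probe sets (-0.71, 0.24). The calls of Thoc7 and Nxt1 were lost without muscle 1, 2 or 3, at adjusted p of 0.051, 0.06 and 0.061 for Thoc7 and 0.064, 0.17 and 0.079 for Nxt1. That of Nxt1 was also lost without tumour 3 (0.06), tumour 4 (0.056) or tumour 6 (0.05).

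**Figure D5:**
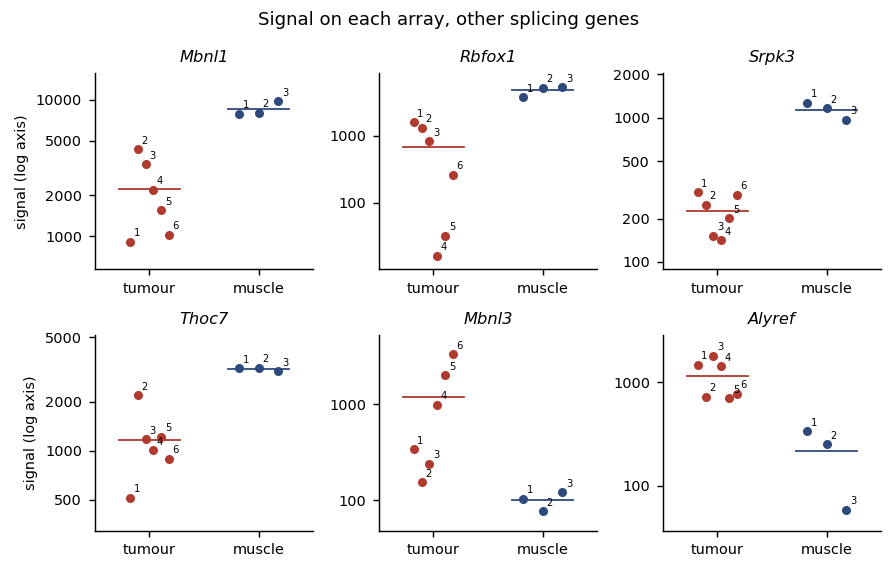
Signal of 6 other splicing genes on each array (vertical log axis, arbitrary units after scaling), tumours left and muscles right; points are arrays with their replicate number, and lines are group means. Mbnl1, Rbfox1, Srpk3 and Thoc7 lie lower in every tumour than in any muscle, and Mbnl3 and Alyref higher.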

How the data were processed

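Biotin-labelled total RNA was hybridised, per the labels. The values deposited by the authors are linear intensities of MAS5, the only tool in the submitters' processing notes. Its target setting is not stated. The 2% trimmed mean was 500.2 on 7 arrays but 294.3 on muscle 1 and 140.9 on muscle 3, so all arrays were scaled to the median of these values (factors of 1.6995 and 3.5493 for those muscles). Of 22690 probe sets, 64 controls were left out, 20380 had 1 gene symbol, 691 several and 1555 none. Gene IDs and symbols of all 44 members matched a table of the GRCm38.p6 assembly.

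Differences were fitted with limma 3.58.1 (R 4.3.3; lmFit, then eBayes with an intensity trend) to log2(signal + 16), with no covariates and no filter, so every member was tested. Adjustment by Benjamini-Hochberg covered all 12393 genes. The fit was tested on simulated data. Promoters were searched with Python 3.11.15.

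The members, gene lists and tests were chosen with earlier results of these data known. Genes named with values are the called members with the 3 largest differences per family and direction (Hnrnpu, called in addition, was added after its values were seen), 12 genes fixed by name (11 members and Snrnp70), up to 3 called genes per other list and direction, and the muscle splicing regulators fixed by name, of which Mbnl2 and Rbm24 were not analysed here. Other members are given by their differences. Same-numbered tumours and muscles deviated from their group means with correlations of 0.23, 0.21 and -0.02, and the labels state no shared origin, so they were not treated as pairs. Alternatives were other scaling, offsets, filters, probe set choices, variance models and leaving out arrays.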

Additional observations from a re-analysis of the deposited data

Results flagged for a closer look

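Among the 44 splicing genes, 5 had 1 tumour far from the other 5, by the gap to the nearest tumour relative to the whole range of log2 signals (Dixon's test at its 95% critical value). These were 11.4% of the members, against 8.5% of all 12393 genes, and chance flags about 1 in 20 where values are normal. Tumour 1 was the low one for 3 of them. Its signal was 2171 for Hnrnpa2b1, against 4463 to 5975 in the other tumours, 256 for Srsf10, against 993.5 to 1864, and 1129 for Srsf6, against 2307 to 3329. Tumour 2 was the low one for Hnrnpa1, at 1368 against 3192 to 4387, and the high one for Sf3b3, at 3387 against 949 to 1205. Without tumour 1 Srsf10 and Srsf6 were called higher in tumours (adjusted p = 0.016 and 0.01), and Hnrnpa2b1 was not (0.062).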

How the results depend on the processing

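Of 1487 values of 65 named genes under 23 settings, 1255 kept their direction and side of the threshold, 124 lost a call, 57 gained one and 51 changed sign. Called under every setting were 5 genes, Hnrnpc, Snrpg, Srsf9, Alyref and Rbmx2 (tested under 22 of them for Rbmx2). Srsf9, Alyref and Rbmx2 have 1 probe set each, so the settings that change or average probe sets left their signals as they were. The number of members called higher was 28 on the arrays as deposited (63.6%, against 19.1% of all genes). With probe sets of a gene averaged it was 4 (9.09%, against 8.25%). It was 16 with a weight per group (36.4%, against 12.8%) and 17 without tumours 1 and 4 (38.6%, against 11.8%). In tumours 1 to 3 against muscles 1 to 3 it was 4 (9.09%, against 3.66%). When 1 array was left out it was 4 to 18 (9.09% to 40.9%, against 4.06% to 11.5%). Of all genes 8.1% were called higher with quantile normalization, 6.38% with median centring and 8.3% without the trend. Srsf genes numbered 7 as deposited, 1 with the mean, 6 without tumours 1 and 4, and 1 to 6 without 1 array. Hnrnp genes numbered 9 as deposited, 2 with median centring, 2 with the mean, 7 with the weights, 1 in the 6 arrays, and 2 to 6 without 1 array. Snrp genes numbered 6 as deposited, 4 with dim genes left out, 4 with the weights, 1 each with quantile normalization, median centring, the mean, no trend and the 6 arrays with or without the block, and 1 to 4 without 1 array. Sf3a genes numbered 2 as deposited, 1 each with the weights and without tumours 1 and 4, and 0 to 1 without 1 array. Sf3b genes numbered 4 as deposited, 2 with the weights, 0 each with the mean and in the 6 arrays with or without the block, and 0 to 2 without 1 array. Of the other splicing genes 45 were higher and 1 lower as deposited, 28 higher with the weights, 31 higher without tumours 1 and 4, 6 higher and 2 lower in the 6 arrays, and 7 to 28 higher and 2 to 4 lower without 1 array. With the number as a replicate block in those 6 arrays, 6 members and 7 other splicing genes were called higher, against 4 and 6 without the block, and 641 against 454 of all genes. The cause was not tested.

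Signs changed as follows (log2). As deposited: Hnrnph2 0.73, Hnrnpul2 0.41, Hnrnph3 0.23, Sf3b1 0.81, Snrpb 0.40, Srsf2 0.61, Srsf4 0.60, Celf1 0.65, Ptbp1 0.41. With quantile normalization: Sf3b1 0.063. With median centring: Snrpn -0.29. With the mean of probe sets: Hnrnpa2b1 -0.011, Hnrnpdl -0.27, Sf3a2 -0.01, Sf3b1 0.32, Snrpd3 -0.25, Srsf2 0.72, Celf1 0.21, Ptbp1 1.35. Without _x_at and _s_at probe sets: Hnrnpll -0.13, Sf3a2 -0.76, Srsf2 0.45. Without tumours 1 and 4: Hnrnpul1 -0.16, Hnrnph3 0.024, Sf3b1 0.35. In the 6 arrays, with or without the replicate block: Hnrnpm -0.072, Hnrnpk -0.23, Hnrnpdl -0.13. Leaving out 1 array gave Hnrnpm -0.088 to 0.44, Hnrnpk -0.036 to 0.35, Hnrnpul1 -0.21 to 0.34, Hnrnpdl -0.13 to 0.21, Hnrnph2 -0.29 to 0.064, Sf3b2 -0.15 to 0.28, Sf3b1 -0.24 to 0.22, Snrpn -0.066 to 0.38. Of these only Hnrnpll had been called, and only Ptbp1 was called after the change. Signals near background, as for Snrpn and Sf3b5, limit what can be read from dim genes.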
